A study of Rattus norvegicus with 192 samples.

Results

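Cytosolic ribosomal protein genes were followed across both brain regions of adult rats, the prefrontal cortex and the hippocampus. The genes were chosen by name: platform symbols beginning with Rpl or Rps and a digit, plus Rplp0, Rplp1, Rplp2 and Rpsa, without the S6 kinases, with 1 probe per gene. This gave 66 of the 13336 named genes of the array, 40 of the large subunit, 22 of the small subunit, 3 of the stalk, and Rps19bp1, which matches the pattern but encodes a protein that binds Rps19 and is not part of the ribosome. Each of the 66 genes had a single probe, so no choice between probes arose. The rule uses names alone, but it was chosen with earlier results of these data known. Of the genes that match the pattern, 1 further gene is not analysed here.

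Signals came from Illumina rat BeadChips hybridised with RNA of adult female Sprague Dawley rats, 87 rats for the prefrontal cortex and 84 for the hippocampus, with 84 rats in both. The dams received 1 of 3 diets over gestation days 1 to 21: ethanol (liquid, ethanol giving 36% of the calories), pairfed (liquid and isocaloric, free of ethanol) or control (chow). Their daughters were injected at the tail base at 50 to 65 days of age, either with 0.1 ml of complete Freund's adjuvant (12 mg/ml), an arthritis model, or with saline, and brains were taken 16 or 39 days later. Per tissue, diet and day there were 9 adjuvant rats, apart from the hippocampus at day 39 with 7 pairfed and 8 control rats, and 5 (day 16) or 6 (day 39) saline rats. Litters are not named in the labels, so rats were treated as independent.

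The cytosolic ribosome is built from a small subunit, which decodes the mRNA, and a large subunit, which forms the peptide bonds and carries the stalk that recruits elongation factors. Its protein genes are among the most abundantly expressed of every cell. Most of their mRNAs start with a terminal oligopyrimidine (TOP) tract, a run of C and T at the 5′ end through which mTOR signalling and the La-related protein Larp1 set how well these mRNAs are translated. In neurons ribosomal protein mRNAs are also found in dendrites and axons.

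The start sites of members that recur below are shown because the pyrimidine tract defines this class of mRNA. RefSeq (GRCr8) promoter entries were found for 55 of the 66 members. Each line gives 30 bases in the direction of transcription, 15 before the annotated start and 15 from it, with capitals marking a run of at least 6 pyrimidines that reaches within 5 bases of the start.
Rps14 (small subunit, chr18:56498245-56498274, plus strand): cccttccgTCTCTCTCTTTCCggtggagga
Rps24 (small subunit, chr16:96502-96531, plus strand): tgagcggTCCTCTTTTCCTCCTTTacagct
Rpl35 (large subunit, chr3:43165907-43165936, minus strand): cgCCCCTTCCTCTTTCTCTCgaaccgggcg
Rpl9 (large subunit, chr14:43247575-43247604, plus strand): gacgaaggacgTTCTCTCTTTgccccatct
Rplp0 (stalk, chr12:46718376-46718405, minus strand): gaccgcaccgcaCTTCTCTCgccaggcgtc
Rplp1 (stalk, chr8:71290858-71290887, minus strand): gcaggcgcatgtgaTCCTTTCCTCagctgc
Rplp2 (stalk, chr1:205975906-205975935, plus strand): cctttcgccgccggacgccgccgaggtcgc
Rps6 (small subunit, chr5:106420526-106420555, minus strand): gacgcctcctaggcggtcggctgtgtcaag
The run lay at the start of 34 of the 55 members (61.8%), against 18.7% of all 33469 promoter entries, on the transcribed strand only. A C at the start base followed by 4 pyrimidines was found in 21 members (38.2%) and in 2.63% of all entries. Rplp2 and Rps6 had no such run within 5 bases of the annotated start. Each of their windows does hold a run of 6 pyrimidines further upstream, which the rule leaves unmarked. The outcome thus depends on where the start is annotated.

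Most of these genes gave bright signals. In the prefrontal cortex 56 of the 66 probes were detected on every array, in the hippocampus 55, and 61 were detected on most arrays of each tissue. Rpl11 was detected on no array, and Rpl34 on 1 of the 87 prefrontal cortex arrays and 0 of the 84 hippocampus arrays. Both large subunit genes fell below the detection filter, so 64 members were tested in each tissue. Rpl12, Rpl36a and Rps19 passed the filter with detection on 13, 10 and 9 prefrontal cortex arrays and on 8, 5 and 5 hippocampus arrays, and their differences are measured close to background.

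Before the comparisons, 3 prefrontal cortex arrays call for caution. Pairfed saline day 16 replicate 3 did not match the hippocampus of its own rat. Over 48 probes that vary by rat, centred on the tissue mean, its correlation across probes was 0.188 with its own rat and 0.774 with another, the rat labelled ethanol saline day 16 replicate 5. The other 83 of 84 rats matched their own tissue best. With values adjusted for group and chip (42 probes) 82 of 84 matched: this array had 0.154 with its own rat and 0.548 with the other, and control saline day 16 replicate 1 had 0.567 with its own rat and 0.58 with another. The centred version was chosen after the adjusted one had been seen, and the probes were picked on these rats. The lowest numbers of detected probes in the tissue were 7578 in ethanol saline day 39 replicate 2 and 7905 in control adjuvant day 39 replicate 3 (tissue median 9868), and the members' mean of the control array, 10.91, was the lowest of its group. The counts of members in the prefrontal cortex are also given without these 3 arrays, a choice made after the data were seen. Without them 0 members were called in the 25 comparisons of the tissue. In the hippocampus control adjuvant day 39 replicate 4 had the fewest detected probes, 8140 (tissue median 10136). The fits were not repeated without it. Of the neuron markers, 6 of 6 were detected on most arrays of both tissues. Hippocampus markers were so for 3 of 6 in the hippocampus and 2 of 6 in the prefrontal cortex, and cortex markers for 3 of 5 in each. These counts hardly separate the regions.

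Repeat hybridizations set the scale for what a difference can mean. For the median member the SD between rats of a group was 0.391 (log2) in the prefrontal cortex, and between 9 arrays of 1 rat it was 0.345. In the hippocampus the SD was 0.399 between rats and 0.347 between repeat arrays, pooled over 4 rats with 4 arrays each. The ratio of rat to repeat SD had a median of 1.16 (prefrontal cortex) and 1.22 (hippocampus). Rats varied less than repeat arrays in 16 members of the prefrontal cortex and 20 of the hippocampus, and over 1.5 times as much in 15 and 14. The fits gave the median member an SE of 0.124 for adjuvant at day 16 in the prefrontal cortex, with a 95% interval of ±0.247.

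**Figure D1:**
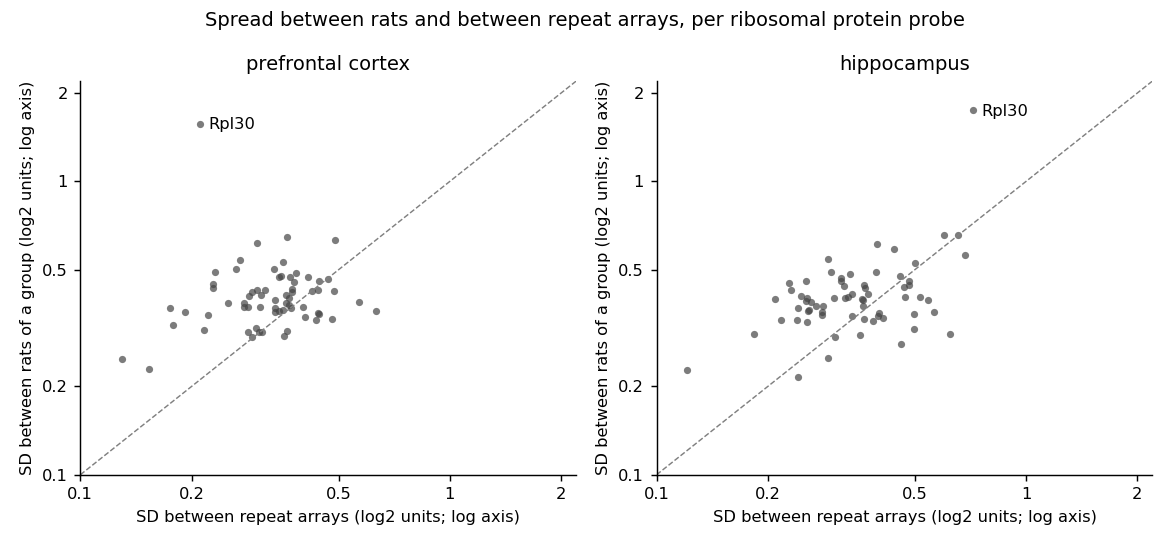
Each point is a ribosomal protein probe, with the SD between repeat arrays of the same rat on the x axis and the SD between rats of the same group on the y axis, both in log2 units on log axes; the dashed line marks equality. Most points lie near the line in both tissues, and Rpl30 lies far above it at 1.57 (prefrontal cortex) and 1.75 (hippocampus).

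At day 16 no ribosomal protein gene was called between adjuvant and saline rats in either tissue. In the prefrontal cortex (27 adjuvant and 15 saline rats) limma called 0 of 64 members at an adjusted p below 0.05, against 20 of 15250 probes (0.131%). Members were higher in adjuvant rats in 37 of 64 cases, beside 50.5% of all probes, with a median of 0.03 on the log2 scale, and 1 member had an unadjusted p below 0.05, which 4.96% of all probes had. Of the large subunit 19 of 38 were higher and of the small subunit 15 of 22. Rpl17, a large subunit protein at the exit tunnel, had the smallest p. Its log2 signal ran from 12.42 to 13.75 with a median of 13.01 in adjuvant rats, against 12.20 to 13.22 with a median of 12.85 in saline rats. The groups overlapped, and the difference was 0.30 ± 0.12 (SE, limma adjusted p = 0.803). Rpl36al1 (0.19 ± 0.10), Rpl21 (0.25 ± 0.14) and Rpl14 (0.20 ± 0.12) followed, all of the large subunit. Without the 3 arrays in doubt 36 members were higher (median 0.01).

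The hippocampus at day 16 (27 adjuvant and 15 saline rats) also had 0 of 64 members called, against 9 of 15320 probes (0.0587%). Members were higher in adjuvant rats in 31 of 64 cases, beside 48.1% of all probes, and 0 members had an unadjusted p below 0.05, which 6.47% of all probes had. Rps6 is the small subunit protein that S6 kinase phosphorylates downstream of mTOR. Its signal ran from 11.83 to 13.48 with a median of 12.73 in adjuvant rats, against 11.51 to 13.01 with a median of 12.56 in saline rats, a difference of 0.23 ± 0.12 between overlapping groups (limma adjusted p = 0.776). Rpl39, a small protein of the exit tunnel, ran from 10.61 to 12.57 with a median of 11.73 in adjuvant rats, against 11.48 to 13.01 with a median of 11.90 in saline rats, a difference of -0.29 ± 0.15 (limma adjusted p = 0.772). Rpl36al1 (0.22 ± 0.11) and Rpl24 (0.26 ± 0.13) were the other members among the 4 with the smallest p. Bulk tissue was measured, so fewer cells of a type and less RNA per cell cannot be told apart.

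Blood genes and 1 vessel gene rose at day 16 in the same rats. All 4 tested blood markers were higher in adjuvant rats in the prefrontal cortex (median 0.80, 3 called) and all 5 in the hippocampus (median 0.94, 3 called). Of the endothelial and mural markers 1 of 4 was called in each tissue, Vwf, which rose by 0.91 ± 0.14 and 0.98 ± 0.16 (limma adjusted p = 3.76e-05 and 1.32e-04). The other vessel markers were not called, with 0.07 ± 0.12 and 0.23 ± 0.11 for Cldn5, 0.49 ± 0.14 and -0.02 ± 0.16 for Esam and 0.03 ± 0.17 and 0.13 ± 0.13 for Tek, in the prefrontal cortex and the hippocampus. With a hemoglobin score as a covariate 34 (prefrontal cortex) and 26 (hippocampus) members were higher, and 0 were called.

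By diet, day 16 gave 0 called members in each of 6 comparisons. Ethanol rats had 36 and 23 of 64 members higher with adjuvant in the prefrontal cortex and hippocampus, beside 48.9% and 48.4% of all probes, with 0% and 0.00653% of probes called. Pairfed rats had 46 and 30 higher, beside 50.9% and 48.1%, with 0.0131% called in each tissue. Without pairfed saline day 16 replicate 3 the prefrontal cortex count in pairfed rats was 43, and without all 3 arrays in doubt 41. Control rats had 30 and 38 higher, beside 51.4% and 49.8%, with 0.0328% and 0.00653% called.

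At day 39 the members were again without a call. In the prefrontal cortex (27 adjuvant and 18 saline rats) 0 of 64 were called, with 0% of 15250 probes called. Members were higher in 39 of 64 cases, beside 50.8% of all probes, and 3 had an unadjusted p below 0.05, beside 5.34%. Rpl27, a large subunit protein, ran from 12.02 to 13.21 with a median of 12.51 in adjuvant rats, against 11.44 to 13.01 with a median of 12.28 in saline rats. The groups overlapped, and the difference was 0.35 ± 0.11 (limma adjusted p = 0.62). Rpl13 (0.23 ± 0.09), Rpl36a (0.23 ± 0.10) and Rpl39 (0.22 ± 0.11) came next, Rpl36a being the dim probe named above. Without the 3 arrays in doubt 44 members were higher, with a median of 0.05.

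In the hippocampus at day 39 (24 adjuvant and 18 saline rats) 0 of 64 members were called, with 0% of 15320 probes called. Members were higher in 42 of 64 cases, beside 48.4% of all probes, with 29 of 38 in the large subunit, 13 of 22 in the small subunit and 0 of 3 in the stalk, and 5 had an unadjusted p below 0.05, beside 5.03%. Rpl21 ran from 12.26 to 13.60 with a median of 12.82 in adjuvant rats, against 11.58 to 13.10 with a median of 12.52 in saline rats, a difference of 0.39 ± 0.13 (limma adjusted p = 0.954). Rpl9 ran from 12.40 to 14.68 with a mean of 13.75 in adjuvant rats, against 13.44 to 14.54 with a mean of 14.02 in saline rats, a difference of -0.32 ± 0.14 (limma adjusted p = 0.957). Both pairs of groups overlapped. Rps23 (0.29 ± 0.13) and Rps20 (0.18 ± 0.09), both of the small subunit, completed the 4 with the smallest p.

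The stalk proteins and Rpsa gave small differences at day 16. Rplp0 anchors the stalk to the large subunit, and Rplp1 and Rplp2 are the acidic proteins that contact the elongation factors. Rplp0 ran from 13.17 to 14.29 in adjuvant rats of the prefrontal cortex, against 13.03 to 14.32 in saline rats. It differed by 0.16 ± 0.14 and 0.05 ± 0.13 between adjuvant and saline rats in the prefrontal cortex and the hippocampus, Rplp1 by -0.11 ± 0.10 and 0.19 ± 0.13, and Rplp2 by 0.01 ± 0.16 and 0.08 ± 0.18. Rpsa, a small subunit protein also known as the laminin receptor, differed by 0.03 ± 0.14 and 0.0045 ± 0.16. The lowest adjusted p among these was 0.846 in limma.

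Averaged over injection and day, diet gave no called member either. In the prefrontal cortex (29 rats per diet) ethanol against pairfed had 21 of 64 members higher, beside 48.9% of all probes, with a median of -0.05. Ethanol against control had 31 higher, beside 51.1%, and pairfed against control had 46 higher, beside 51.9%, with a median of 0.06. No probe was called in the 3 comparisons (0%), and 3, 2 and 4 members had an unadjusted p below 0.05, beside 3.78%, 4.79% and 5.45% of all probes. By role, 5 of 22 small subunit members were higher in ethanol than in pairfed rats and 19 of 22 in pairfed than in control rats, comparisons that share the pairfed rats. Without the 3 arrays in doubt 22 members were higher for ethanol against pairfed (median -0.04), 30 for ethanol against control and 44 for pairfed against control (median 0.04). Without control adjuvant day 39 replicate 3 alone ethanol against control had 25 higher.

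Single genes showed wide overlap between diets in the prefrontal cortex. Rpl22, a large subunit protein, ran from 10.57 to 12.87 with a median of 11.97 in ethanol rats, against 11.30 to 12.95 with a median of 12.11 in pairfed rats, a difference of -0.23 ± 0.09 (limma adjusted p = 1.00). Rpl13a, a large subunit protein that also takes part in silencing inflammatory transcripts, ran from 10.72 to 12.49 with a median of 11.26 in pairfed rats, against 9.92 to 11.68 with a median of 11.19 in control rats, a difference of 0.28 ± 0.11 (limma adjusted p = 0.862). Rps4x had -0.23 ± 0.10 for ethanol against control and -0.22 ± 0.10 for ethanol against pairfed. Rps24 had 0.32 ± 0.15 for ethanol against control and Rpl35a -0.27 ± 0.11 for ethanol against pairfed.

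The hippocampus (29 ethanol, 27 pairfed and 28 control rats) had 45 of 64 members higher in ethanol than in pairfed rats, beside 51.3% of all probes, with a median of 0.06. Ethanol against control had 40 higher, beside 50.1%, and pairfed against control 23, beside 48.7%. No probe was called in the 3 comparisons (0%), and 4, 1 and 2 members had an unadjusted p below 0.05, beside 4.01%, 3.56% and 4.3% of all probes. Rps14, a small subunit protein lost in a form of human myelodysplastic syndrome, ran from 12.94 to 14.21 with a median of 13.76 in ethanol rats, against 11.38 to 14.32 with a median of 13.43 in pairfed rats. The groups overlapped, and the difference was 0.32 ± 0.11 (limma adjusted p = 1.00). Rpl18 (0.27 ± 0.10) had the smallest p for ethanol against control, and Rps7 (-0.24 ± 0.09) for pairfed against control.

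The direction of the members depended on the normalization, for example for adjuvant in the hippocampus and for ethanol against control in the prefrontal cortex. With the arrays scaled to a common median in place of quantile normalization, 2 of 64 members lay higher in adjuvant rats in the hippocampus at day 16, in place of 31, with a median of -0.24 while the median of all probes moved to -0.12. At day 39 in the hippocampus 5 of 64 lay higher in place of 42, with a median of -0.14 beside -0.10 for all probes. Ethanol against control in the prefrontal cortex had 52 higher in place of 31 (median 0.06, all probes 0.04). The other diet comparisons of that tissue kept their direction, and their counts grew more uneven. Pairfed against control had 59 of 64 higher in place of 46 (median 0.22, all probes 0.07), and ethanol against pairfed had 7 in place of 21 (median -0.14, all probes -0.03). Unadjusted p below 0.05 was reached by 21 members in place of 0 in the hippocampus at day 16, and by 14 in place of 4 for pairfed against control in the prefrontal cortex. The same scaling moved other bright probes in the same direction. Of the 1480 probes in the brightest decile of the hippocampus that are no members, 3.45% lay higher in adjuvant rats at day 16 under median scaling and 45.7% under quantile normalization. For pairfed against control in the prefrontal cortex these shares were 91.5% and 50.7% of 1473 probes. Over all alternative settings, with arrays left out among them, ethanol against control in the hippocampus had 26 to 45 members higher. Ethanol against pairfed there had 43 to 50 and pairfed against control 14 to 28. Adjuvant against saline in the prefrontal cortex had 31 to 50 at day 16 and 32 to 47 at day 39.

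The repeat arrays show how far the scaling moves a single RNA. The mean of the 64 members over the 9 prefrontal cortex arrays of 1 rat ran from 11.28 to 11.42 with quantile normalization (SD 0.05) and from 10.62 to 11.75 with median scaling (SD 0.34). In the hippocampus the SD of this mean over the 4 arrays of a rat was 0.05 to 0.13 with quantile normalization and 0.19 to 0.56 with median scaling. Adjuvant rats at day 16 had a median of 10065 detected probes in the hippocampus and saline rats 10588. The part of this in the shift was not tested. Cyclic loess, no background correction and the authors' deposited values gave counts of members higher that lay within 5 of those of quantile normalization in these 10 comparisons, and no setting called a member in any of them.

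**Figure D2:**
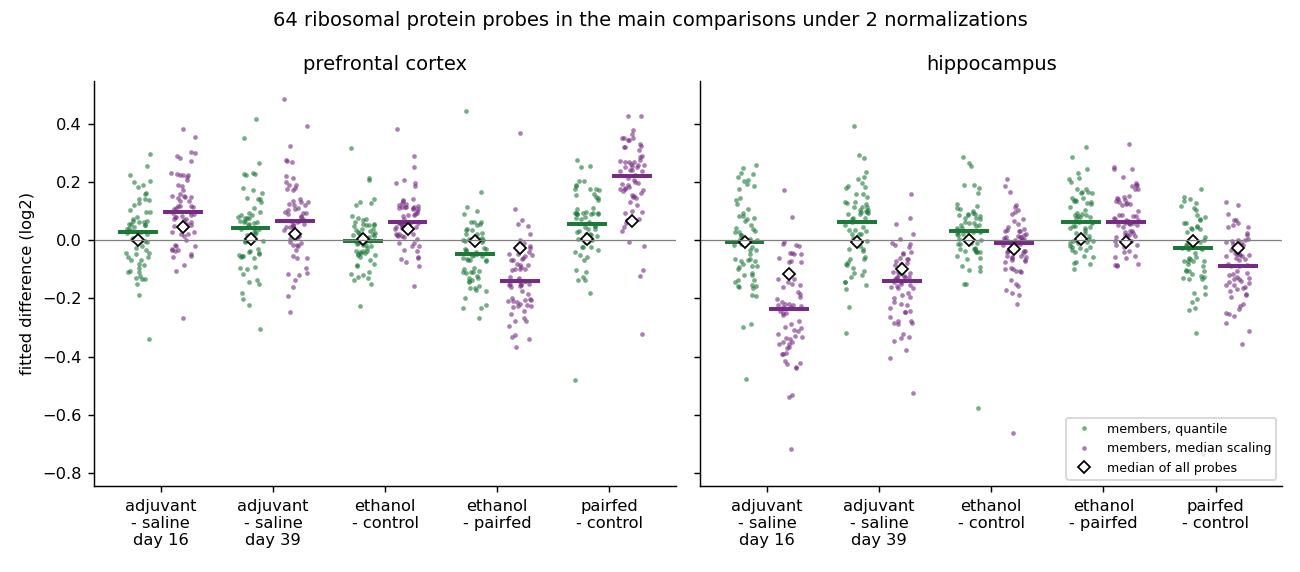
Points are the fitted log2 differences of 64 ribosomal protein probes for 5 comparisons in each tissue, with quantile normalization in green and median scaling in purple; bars are the members' medians and diamonds the medians of all probes. In the hippocampus the adjuvant comparisons lie around 0 with quantile normalization and mostly below it with median scaling (2 and 5 of 64 higher).

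At day 39 the response to adjuvant was set out by diet. In ethanol rats of the prefrontal cortex (9 adjuvant and 6 saline) 49 of 64 members were higher with adjuvant, beside 51.5% of all probes, with a median of 0.18. In the hippocampus of ethanol rats 51 of 64 were higher, beside 48.2%, with a median of 0.16. Pairfed rats had 20 and 40 of 64 higher in the prefrontal cortex and hippocampus, beside 50.5% and 51%, and control rats had 33 and 23, beside 49.1% and 47.7%. No member was called in these comparisons, nor any probe (0%), apart from 1 probe in pairfed rats of the prefrontal cortex (0.00656%). The mean of the 64 members ran from 11.34 to 11.73 with a median of 11.46 in adjuvant ethanol rats of the prefrontal cortex, against 11.21 to 11.46 with a median of 11.31 in saline ethanol rats. In the hippocampus it ran from 11.36 to 11.83 with a median of 11.54, against 11.18 to 11.48 with a median of 11.32. The groups overlapped in both tissues. In the prefrontal cortex the saline ethanol rats had the lowest group mean of the tissue, 11.32. Adjuvant ethanol rats there had 11.49, beside 11.49 in pairfed and 11.44 in control adjuvant rats of day 39. In the hippocampus the adjuvant ethanol rats had the highest group mean, 11.55. Saline ethanol rats there had 11.33, beside 11.36 in pairfed and 11.46 in control saline rats of day 39.

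In ethanol rats 10 members of the prefrontal cortex (15.6%) and 9 of the hippocampus (14.1%) had an unadjusted p below 0.05, all higher with adjuvant, beside 8.59% and 6.76% of all probes. Without ethanol saline day 39 replicate 2, whose array stood lowest in detection, the prefrontal cortex count was 6, with 49 members higher and a median of 0.15, and without all 3 arrays in doubt it was 7, with 49 higher and a median of 0.14. Leaving out each of the 15 ethanol rats of day 39 in turn gave 43 to 52 members higher (prefrontal cortex) and 49 to 54 (hippocampus), and 6 to 12 and 6 to 11 members with an unadjusted p below 0.05. Median scaling gave 62 (prefrontal cortex) and 19 (hippocampus) members higher, so the direction in the hippocampus depends on the scaling. A hemoglobin covariate gave 49 and 46.

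Rplp1 and Rpl35 were the 2 members with an unadjusted p below 0.05 in both tissues of ethanol rats. They were 2 of the 10 in the prefrontal cortex and 2 of the 9 in the hippocampus, and were singled out after their values were seen. The share of all probes below 0.05 in both tissues was not counted, so this overlap is not read as a result. Rplp1 had a log2 signal of 12.55 to 13.42 with a median of 13.12 in adjuvant ethanol rats of the prefrontal cortex, against 12.35 to 12.71 with a median of 12.51 in saline ethanol rats. The groups overlapped at 12.55 to 12.71, and the difference was 0.57 ± 0.17 (limma adjusted p = 0.267). In the hippocampus Rplp1 ran from 13.01 to 13.96 with adjuvant (median 13.48), against 12.32 to 13.47 with saline (median 13.20), a difference of 0.43 ± 0.22 (limma adjusted p = 0.738). In pairfed and control rats the Rplp1 difference was -0.16 ± 0.17 and -0.24 ± 0.17 in the prefrontal cortex. Rpl35, at the exit of the nascent peptide, ran from 12.30 to 13.51 with adjuvant, against 11.23 to 13.04 with saline, in the prefrontal cortex of ethanol rats, a difference of 0.60 ± 0.24. In their hippocampus it ran from 12.53 to 13.62 with adjuvant, against 12.02 to 13.03 with saline, a difference of 0.48 ± 0.22. Of the other members that were high in ethanol rats, some were high in 1 tissue and some in both. The examples were also singled out after their values were seen. Rpl9 had 0.61 (prefrontal cortex) and -0.0045 (hippocampus), Rps12 had -0.05 and 0.72, and Rpl13a 0.06 and 0.61. Rps25 had 0.64 and 0.42 and Rps15 0.44 and 0.38. None of them was called. A joint fit of both tissues tested the difference between them in this response. It called 0 of 64 members and 0% of 14441 probes.

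The test of the difference between diets called no member. The response at day 39 was larger in ethanol than in control rats for 46 of 64 members in the prefrontal cortex (median 0.20) and 52 in the hippocampus (median 0.26), beside 51.7% and 50.5% of all probes. In each tissue 10 members had an unadjusted p below 0.05, beside 5.77% and 5.81%, with 0% of probes called. Against pairfed rats it was larger for 45 members in the prefrontal cortex (median 0.27) and 37 in the hippocampus (median 0.12), beside 50.3% and 47.9%. There 12 and 7 members had an unadjusted p below 0.05, beside 6.68% and 5.84%, again with 0% called. These comparisons share the ethanol rats. The sizes in the prefrontal cortex lean on single arrays. Without control adjuvant day 39 replicate 3 ethanol minus control was larger for 42 members with a median of 0.09, and without ethanol saline day 39 replicate 2 for 47 with a median of 0.14 and 6 members at an unadjusted p below 0.05. Without ethanol adjuvant day 39 replicate 2 it was larger for 44 with a median of 0.13. Without the 3 arrays in doubt it was larger for 44 with a median of 0.08, and 5 members had an unadjusted p below 0.05, beside 4.62% of all probes. Ethanol minus pairfed was then larger for 48 with a median of 0.19, and 9 members had an unadjusted p below 0.05, beside 6.01%. Median scaling turned ethanol minus pairfed in the hippocampus, with 23 members larger in place of 37 (median -0.14, all probes -0.16), and without pairfed adjuvant day 39 replicate 2 it was larger for 35 with a median of 0.07. Rps2, a small subunit protein at the mRNA entry channel, had 1.13 ± 0.33 for ethanol against control in the hippocampus (limma adjusted p = 0.747) and -0.18 ± 0.29 in the prefrontal cortex, and was singled out after its values were seen.

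**Figure D3:**
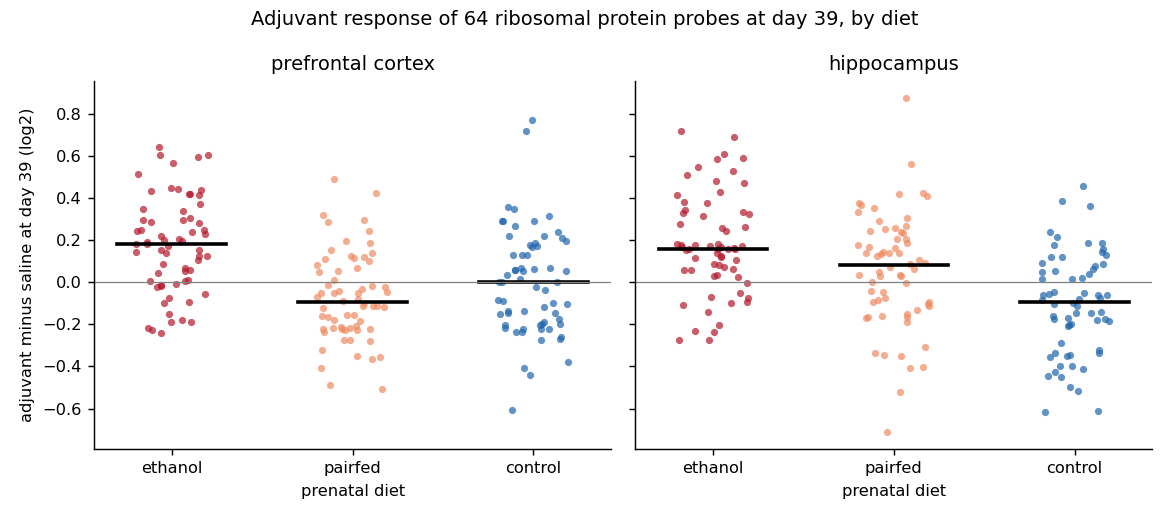
Points are the 64 members' fitted differences between adjuvant and saline at day 39 in log2 units, by prenatal diet and tissue, and black bars are medians. The medians of ethanol rats lie at 0.18 and 0.16, those of pairfed rats at -0.09 and 0.08 and those of control rats at 0.0010 and -0.09, for the prefrontal cortex first.

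The members closest to a call lay in the hippocampus of adjuvant rats at day 39. They were picked as the smallest p among 50 comparisons of 64 members, after their values were seen. Rps24, a small subunit protein mutated in some human patients with Diamond-Blackfan anemia, had a log2 signal of 7.79 to 9.27 with a median of 9.03 in 7 pairfed rats, against 7.08 to 8.91 with a median of 7.76 in 8 control rats. The groups overlapped. The difference was 1.05 ± 0.22, a 2.07-fold higher signal in pairfed rats, with a limma adjusted p of 0.0678. In this comparison 1 of 15320 probes was called (0.00653%). In the joint fit of both tissues Rps24 had the smallest p of the members for the same comparison. Its difference for prefrontal cortex minus hippocampus was -1.23 (limma adjusted p = 0.419), so the higher signal in pairfed rats is given for the hippocampus only. The 9 ethanol rats ran from 8.10 to 9.27 with a median of 8.68, and lay 0.69 ± 0.21 above the same control rats (limma adjusted p = 0.385). Control rats thus had the lowest median of the adjuvant groups. Their mean of 7.87 was close to that of pairfed saline rats at day 39, 7.92. Pairfed adjuvant rats lay 0.88 ± 0.23 above those saline rats (limma adjusted p = 0.523).

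Rps14 lay lower in pairfed rats. Its signal ran from 11.38 to 13.71 with a median of 13.11 in pairfed rats, against 13.14 to 14.32 with a median of 13.92 in control rats, and from 13.33 to 14.21 with a median of 13.85 in ethanol rats. Pairfed rats overlapped with both other groups. Pairfed minus control was -0.97 ± 0.21 (limma adjusted p = 0.0916), and ethanol minus pairfed was 0.97 ± 0.21 (limma adjusted p = 0.0935, with 0% of all probes called). Both differences rest on the same 7 pairfed rats. Without pairfed adjuvant day 39 replicate 3, the lowest at 11.38, they were -0.72 and 0.73, with adjusted p of 0.336 and 0.995. That array had 9051 detected probes (tissue median 10136). Its median raw signal, 6.64 on the log2 scale, was the lowest of the hippocampus arrays. With the authors' deposited values both Rps24 (0.76, adjusted p = 0.0457) and Rps14 (-0.96, adjusted p = 0.0492) passed the threshold for pairfed against control. Leaving out 1 rat also took some of these past the threshold. Rps24 passed without pairfed adjuvant day 39 replicate 1 (adjusted p = 0.0356) or 6 (0.0266), control saline day 16 replicate 4 (0.0466) or ethanol saline day 39 replicate 2 (0.0464). The numbers are those of the hippocampus, where ethanol saline day 39 replicate 2 is another rat than in the prefrontal cortex. Rps14 passed without pairfed adjuvant day 39 replicate 1 (0.0497 against control and 0.0480 for ethanol against pairfed) or 4 (0.022 and 0.0141). Over all alternatives the adjusted p for pairfed against control ran from 0.0205 to 0.422 for Rps24 and from 0.022 to 0.626 for Rps14. In the same adjuvant rats ethanol against control had 0 of 64 members called (0.0131% of probes), and in the prefrontal cortex the 3 diet comparisons of these groups had 0% of probes called.

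**Figure D4:**
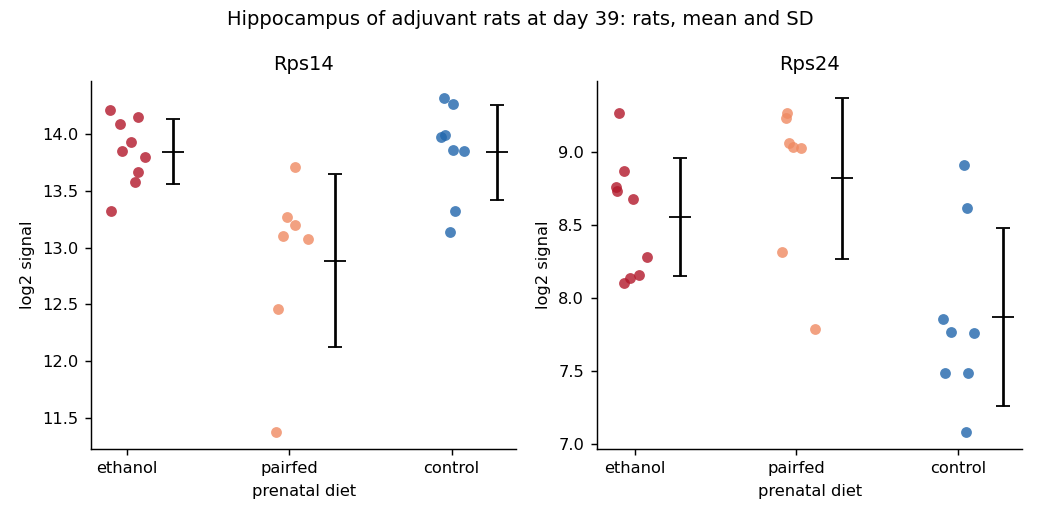
Points are the log2 signals of Rps14 and Rps24 in the hippocampus of single adjuvant rats at day 39, by prenatal diet (9 ethanol, 7 pairfed and 8 control), with the mean and SD beside them. Rps14 has 1 pairfed rat at 11.38, and pairfed rats reach 9.27 for Rps24 where control rats reach 8.91.

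Rpl27 had the smallest p of any member in the prefrontal cortex, and was also picked after its values were seen. In adjuvant rats at day 16 it ran from 12.48 to 13.33 with a median of 12.65 in ethanol rats, against 11.23 to 12.54 with a median of 12.23 in control rats. The groups overlapped, and the difference was 0.70 ± 0.17 (limma adjusted p = 0.319, with 0% of all probes called). In saline rats at day 16 the 5 ethanol rats had 11.33, 12.06, 12.19, 12.58 and 12.64, against 12.30, 12.37, 12.46, 12.62 and 13.21 in the 5 control rats, so the order of the medians was turned there.

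Rpl30, a large subunit protein, varied more between rats of a group than any other tested member. Its SD between rats of a group was 1.57 (prefrontal cortex) and 1.75 (hippocampus), where the members next to it, Rpl3l and Rps16, had 0.65 and 0.66. Signals reached 13.12 in the prefrontal cortex, with no rat between 10.33 and 10.92, and ran from 5.28 to 13.21 in the hippocampus, with no rat between 10.64 and 11.10. Of 84 rats, 37 lay below these gaps in both tissues, 45 above them in both, 2 below in the hippocampus alone and 0 below in the prefrontal cortex alone. The 2 exceptions were pairfed saline day 16 replicate 3, the array that does not match its rat, and a rat at 10.64, the lower edge of the hippocampus gap. Rpl30 itself had a correlation of 0.819 between the tissues across rats. That is above the minimum of 0.6 for the probes of the rat check, so the first exception and the mismatch may not be independent.

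Rats low for Rpl30 in both tissues came from every diet: 12 of 29 ethanol, 15 of 27 pairfed and 10 of 28 control rats. The gaps were placed on these values, so no test was made. The SD between repeat arrays was 0.21 for 9 arrays of a prefrontal cortex RNA. For the 4 hippocampus RNAs with 4 arrays each it was 0.33, 0.40, 0.46 and 1.26, and the most variable of them ran from 6.74 to 9.79, below the hippocampus gap on all its arrays. The differences by treatment had large SEs, for example -0.34 ± 0.46 (prefrontal cortex) and -0.48 ± 0.50 (hippocampus) for adjuvant against saline at day 16.

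**Figure D5:**
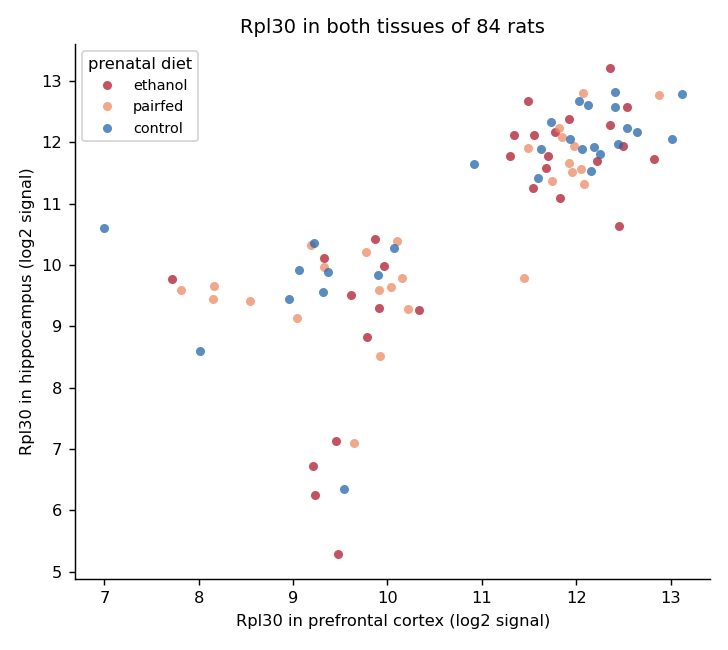
Each point is a rat, with the log2 signal of Rpl30 in the prefrontal cortex on the x axis and in the hippocampus on the y axis, coloured by prenatal diet. Of the 84 rats, 37 are low and 45 high in both tissues, and every diet is present in both clusters.

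None of the paralogs was called, nor was the binding protein Rps19bp1. By their names the paralogs are counted with the large subunit throughout. Rpl36al1, by its name a paralog of Rpl36a, is described above. Rpl3l, a paralog of Rpl3 known from muscle, differed by 0.12 ± 0.19 and 0.25 ± 0.19 between adjuvant and saline rats at day 16 in the prefrontal cortex and hippocampus. Rpl22l1, a paralog of Rpl22, had 0.14 ± 0.14 and -0.14 ± 0.20, and Rpl7l1 -0.05 ± 0.09 and 0.06 ± 0.11. Rpl37l1 had -0.06 ± 0.16 and -0.07 ± 0.15. Rps19bp1 had 0.22 ± 0.15 and 0.20 ± 0.19, with 0.29 ± 0.16 for ethanol against control in the hippocampus. Paralogs and pseudogenes of ribosomal proteins are near copies of each other, so a probe may also bind their transcripts, and the probe sequences were not used here.

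Genes linked to ribosome supply had no called member in the 5 main comparisons of either tissue. Tested were 6 other TOP or ribosome linked genes, 7 elongation factors, 37 and 36 initiation factors, 39 ribosome biogenesis genes, 21 and 20 genes of the mTOR and S6 kinase pathway and 58 mitochondrial ribosomal proteins, in the prefrontal cortex and the hippocampus. At day 16 their medians lay between -0.04 and 0.04 in the prefrontal cortex and between -0.03 and 0.08 in the hippocampus. Mitochondrial ribosomal proteins lay higher in ethanol than in pairfed rats for 40 of 58 in the hippocampus (median 0.05) and for 27 of 58 in the prefrontal cortex (median -0.0049), beside 51.3% and 48.9% of all probes. Between pairfed and control rats 42 of 58 (prefrontal cortex) and 20 of 58 (hippocampus) were higher, beside 51.9% and 48.7%.

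The effects were not shown to differ between the tissues. In the joint fit of both tissues (14441 probes), 0 of 64 members and 0 of all probes (0%) were called for the difference between prefrontal cortex and hippocampus in each of the 8 effects tested. The largest gap between the members' medians was for ethanol against pairfed, at -0.13 for prefrontal cortex minus hippocampus, where 6 members and 4.13% of all probes had an unadjusted p below 0.05.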

How the data were processed

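The authors deposited a non-normalized table, per the file headers, pairing each array's signal (log2, as its values show) with detection p-values. The authors' deposited value table is also log2, and all 192 of its columns ranked probes as their own array did. How they were scanned is unknown here. Signals were unlogged, corrected by normexp from detection p-values (offset 16), quantile-normalized over 192 arrays and put on the log2 scale (neqc, limma 3.58.1, R 4.3.3, statmod 1.5.0). The offset shrinks differences of dim probes. A probe was tested in a tissue where 5 or more arrays detected it (p below 0.05). limma fitted 12 groups per tissue with chip as a fixed block on 1 array per rat, with Benjamini-Hochberg adjustment over all probes and a threshold of 0.05; signals printed per rat are not adjusted for chip. The fit was run on simulated data with independent noise for each probe and no chip effects. That run does not cover shifts that bright probes share. The 20 hybridization repeats served for the repeat spread; for 3 of them label fields name different injections, and the title was followed. Members, lists and tests were chosen with earlier results of these data known. Named are the 4 members with the smallest p per main comparison where fewer than 4 were called, the stalk proteins, Rpsa, Rps6 and paralogs; others are said to be picked after seeing values. The number of arrays limits the precision. The labels name no amplification batch. The labels do not say that replicate numbers mark a shared animal or batch. In the prefrontal cortex 39.7% of same-numbered pairs from different groups shared a chip, against 8.59% of other pairs, and in the hippocampus 11.1% against 12.4%; chip is a term of the fit.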

Additional observations from a re-analysis of the deposited data

Results flagged for a closer look

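The gap of a group's highest or lowest rat to its neighbour, as a share of the group's range, passed Dixon's 95% critical value in 23 of 240 checks (10 measures in 24 groups), where chance passes about 1 in 20. The mean of all members stood apart for pairfed adjuvant day 39 replicate 9 (11.94) and control adjuvant day 39 replicate 3 (10.91) in the prefrontal cortex. Control adjuvant day 39 replicate 3 was also low for Rplp0 (11.47) and Rps14 (12.36).

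In the prefrontal cortex Rplp0 was low in ethanol adjuvant day 39 replicate 1 (12.80), control adjuvant day 16 replicate 9 (13.17) and control saline day 39 replicate 4 (13.20). Rplp2 was low in control adjuvant day 16 replicate 5 (4.51) and control adjuvant day 39 replicate 2 (4.82). Rplp1 stood at 13.21 in ethanol saline day 16 replicate 3, Rps6 at 13.19 in control saline day 39 replicate 5, Rps14 at 12.07 in pairfed adjuvant day 16 replicate 7 and Rpl27 at 13.33 in ethanol adjuvant day 16 replicate 1.

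In the hippocampus Rpsa was low in control adjuvant day 16 replicate 3 (11.94), pairfed adjuvant day 16 replicate 7 (11.78), ethanol adjuvant day 16 replicate 2 (11.48) and control adjuvant day 39 replicate 4 (11.21). Rpl30 stood at 6.72 in ethanol saline day 39 replicate 2 and at 6.34 in control adjuvant day 39 replicate 8. Rpl27 stood at 12.00 in ethanol saline day 39 replicate 1 and at 11.70 in control saline day 39 replicate 5, Rplp1 at 12.26 in control adjuvant day 39 replicate 1 and Rps6 at 12.43 in ethanol saline day 39 replicate 1.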

How the results depend on the processing

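No member was called in the 10 main comparisons under any alternative, 49 for the prefrontal cortex and 52 for the hippocampus. The members' median minus that of all probes lay near 0 in these comparisons, and its sign turned in 16 of 49 alternatives for ethanol against control in the prefrontal cortex and in 11 of 52 for adjuvant at day 16 in the hippocampus. It also turned under a replicate block for adjuvant in the prefrontal cortex (-0.026 at day 16 and -0.00059 at day 39) and under median scaling for adjuvant at day 39 in the hippocampus (-0.041). It did not turn in the other 5 comparisons. Median scaling moved 4 results of day 39 by at least the median group SD of the members' mean. That SD was 0.106 (prefrontal cortex) and 0.127 (hippocampus). Relative to all probes, adjuvant against saline in ethanol rats went to 0.29 (prefrontal cortex) and 0.024 (hippocampus). The response difference in the prefrontal cortex went to 0.44 for ethanol minus control and 0.39 for ethanol minus pairfed. In the hippocampus ethanol minus pairfed went to 0.021, a shift below that SD, with 23 members larger in place of 37. The response difference of ethanol minus control in the prefrontal cortex was 0.12 with detected probes as a covariate and 0.10 with array weights, and that of ethanol minus pairfed in the hippocampus 0.050 with the hemoglobin score. Median scaling also turned Rps20 at day 39 (-0.022) and Rpl36al1 (-0.048), Rpl24 (-0.015) and Rps6 (-0.020) at day 16 in the hippocampus. Under a replicate block Rpl36al1 (-0.12) and Rpl14 (-0.11) turned at day 16 in the prefrontal cortex, and Rps24 and Rps14 for pairfed against control in adjuvant rats of the hippocampus at day 39 had adjusted p of 0.0205 and 0.042. The labels tie no animal or batch to the numbers. The median correlation of same-numbered arrays was -0.025 and 0.039, and 7 of 87 (prefrontal cortex) and 28 of 84 (hippocampus) arrays correlated best with their own number, where same-numbered arrays made up 11.9% and 12.3% of the possible partners. Rps24 and Rps14 also passed without background correction (adjusted p = 0.0461 for both) and with the hemoglobin score as a covariate (0.0442 for both). The cause was not tested. Averaging probes of a gene was not run, because every gene had 1 probe. Without pairfed adjuvant day 39 replicate 9, high for the members' mean in the prefrontal cortex, the members' median there was 0.02 for adjuvant at day 39 and -0.02 for ethanol against pairfed. The alternatives that leave out a rat of day 39 or the arrays in doubt were chosen after seeing the data, apart from the array with the fewest detected probes. The number of arrays and the spread between repeat arrays limit what could be detected, most of all for dim probes such as Rpl12, Rpl36a and Rps19.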
